A study of Mus musculus with 12 samples.

Results

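Long intergenic noncoding RNAs (lincRNAs) were followed across 12 mouse liver libraries. The set held the 189 genes that the deposited table classes as lincRNA and that reached at least 20 counts in 6 or more of the 12 libraries, of 5559 lincRNA rows and 54532 genes in all. They were thus selected on their counts and the biotype label, so their levels are a description. All 189 also passed the low-count filter of the tests, among 390 lincRNAs and 14686 genes tested, and 94 of them reached 20 counts in all 12 libraries. The 8 members just inside the rule, with 20 counts in exactly 6 libraries, held 198 to 429 counts in total. The 15 lincRNAs just outside it, with 20 counts in 5 libraries, held 185 to 299.

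LincRNAs are transcribed by RNA polymerase II from sites between protein-coding genes, and many are capped, spliced and polyadenylated like messenger RNA but carry no long reading frame. Most are present in few copies per cell and are more restricted to certain tissues than messenger RNAs. Some build nuclear bodies or act on chromatin, some act on the gene next to them, and some serve mainly as precursors of small RNAs held in their introns or exons.

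The libraries were made from total RNA of livers of wild-type (WT) mice that had carried an adenovirus for 9 days. The study is about ANGPTL8, a secreted protein of liver and fat that takes part in inhibiting lipoprotein lipase. ANG8 livers received a virus that overexpresses ANGPTL8 and were set against Ad_GFP livers, which received a control virus, and shANG8 livers received a knockdown virus and were set against shCtrl livers, which received a control hairpin virus. Each group held 3 libraries, and every mouse had therefore received an adenovirus. The labels give no sex, age, dose or promoter of the viruses, and do not say that the libraries of a group come from separate animals, so p-values measure the spread between these libraries, which may be technical.

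Libraries held 12537083 to 15144312 counts. Levels are given as CPM, a gene's counts scaled to the size of its library with TMM factors, and effects are log2 fold changes with a standard error (SE) from edgeR's quasi-likelihood test. The p-values carry the Benjamini-Hochberg adjustment across the 14686 tested genes, and called below means an adjusted p under 0.05. Angptl8 itself stood at 165, 314 and 172 CPM in ANG8 livers, against 96.8, 80.4 and 90.1 CPM in Ad_GFP livers (log2 fold change 1.28, SE 0.33, adjusted p = 0.0201). It stood at 144, 143 and 79.2 CPM in shANG8 livers, against 340, 391 and 167 CPM in shCtrl livers (log2 fold change -1.29, SE 0.33, adjusted p = 0.235, not called). The groups of each pair did not overlap. The first and the second shCtrl library held more Angptl8 than any ANG8 library, and the third held about as much as the lower ANG8 libraries; shCtrl was not called against Ad_GFP (log2 fold change 1.75, adjusted p = 0.338).

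Most members are known only by a systematic name: 95 symbols start with Gm and a number, and 59 end with Rik. Members were 269 to 20771 bases long (median 2054), with a median of 3 merged exons, and lay on 20 chromosomes, from 22 members on chromosome 1 to 2 on chromosome 18 and 3 on the X. They were low: their mean level over the 12 libraries ran from 1.16 to 471 CPM, with a median of 3.45 CPM. On the log2 CPM scale of the fit their median was 1.85, against 3.54 for all tested genes. The mean coefficient of variation within groups was 5.81% for the steadiest member and 71.1% for the most variable, with a median of 30.5%. The table's identifiers and coordinates are those of the build GRCm38, and the labels do not give the strand setting of the counting. The values of 65 members are therefore uncertain. Of these, 20 share exon sequence with another gene on their own strand and 43 with a gene on the other strand. For 13 a near-identical copy was found among the annotated transcripts of genes elsewhere, with overlaps among these 3 classes. The other 124 had none of these, but copies outside annotated transcripts were not sought. Gm26917, described below, is among the 124.

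The 3 members with the most counts in a library held 29.7% to 63.1% of all member counts there. Neat1, the RNA on which the nuclear bodies called paraspeckles are built, had the highest mean CPM. It stood at 664, 831 and 417 CPM in ANG8 livers, against 407, 816 and 393 CPM in Ad_GFP livers, and at 282, 434 and 201 CPM in shANG8 livers, against 505, 469 and 232 CPM in shCtrl livers. The libraries of each pair of groups overlapped, and neither difference was called (log2 fold changes 0.24, SE 0.39, and -0.39, SE 0.39, edgeR). The row shares exon sequence with 3 annotated fragments on its own strand. Gm26917, which lies at an interval of chromosome 17 that carries ribosomal RNA sequence (chr17:39843013-39846341, plus strand), came next at 602, 418 and 650 CPM in ANG8 livers, against 371, 416 and 401 CPM in Ad_GFP livers. All 3 ANG8 values were above all 3 Ad_GFP values, and the difference was not called (log2 fold change 0.49, SE 0.21, adjusted p = 0.131, edgeR).

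Malat1, a nuclear RNA found at splicing speckles, was uneven between libraries. It stood at 440, 1481 and 176 CPM in ANG8 livers, against 226, 379 and 222 CPM in Ad_GFP livers. In the knockdown arm it stood at 198, 644 and 276 CPM in shANG8 livers, against 214, 199 and 169 CPM in shCtrl livers. The second library of the ANG8 group and the second of the shANG8 group stood far above the other libraries of their groups, and no difference was called (log2 fold changes 1.34, SE 0.72, and 0.94, SE 0.71). Per kilobase of the deposited gene length, AW112010 led the set with a mean of 120 CPM per kilobase, followed by Gm26917 with 118 and Malat1 with 55.2, and Neat1, the longest member, stood at 22.7 CPM per kilobase. Among the 10 most abundant members, Tmem250-ps was the steadiest within groups, at 63.8, 60.7 and 55.9 CPM in ANG8 livers, against 61.7, 57.2 and 55.2 CPM in Ad_GFP livers. In shCtrl livers it stood at 73.4, 80.7 and 70.8 CPM, all above the Ad_GFP values without a call (log2 fold change 0.37, SE 0.14, adjusted p = 0.467, edgeR). Its exons overlap those of 1810012K08Rik on the other strand, so its level is uncertain. Gm42047 and Gm42031, which have near-identical copies elsewhere, were uneven too. Gm42031 stood at 4.47, 31.2 and 170 CPM in shANG8 livers, against 34.9, 23.2 and 29.8 CPM in shCtrl livers, a range within 1 group that no comparison could call.

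**Figure D1:**
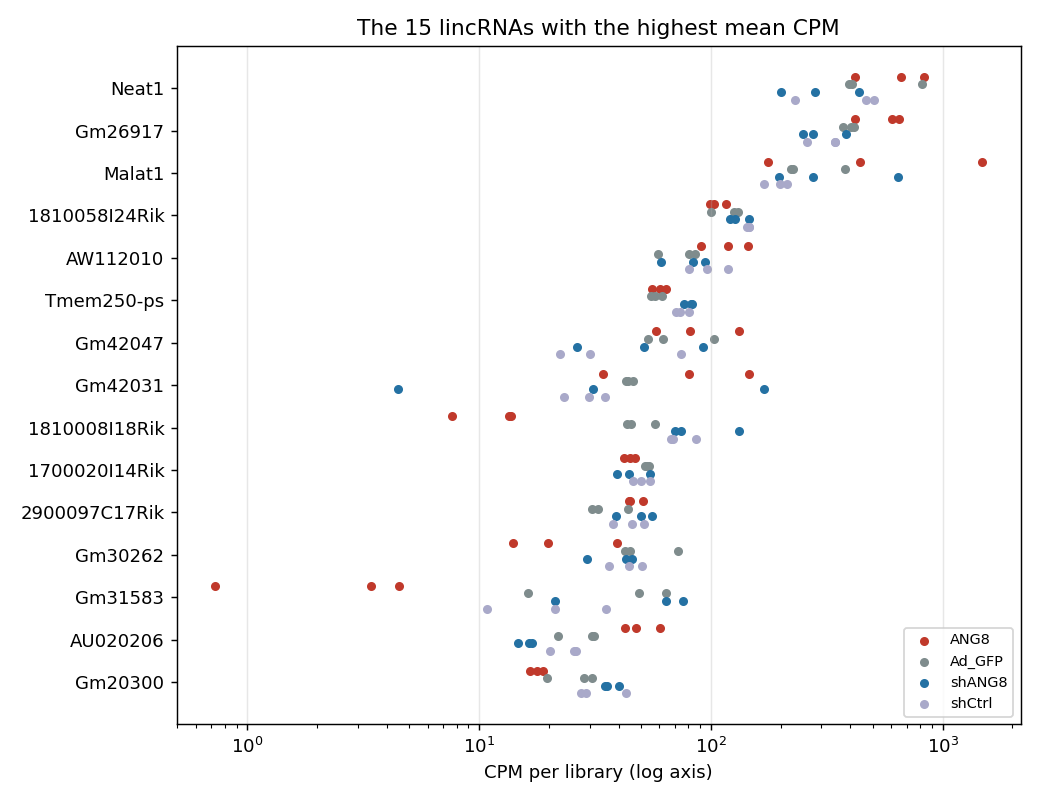
CPM in each library (log axis) for the 15 members with the highest mean CPM; each point is 1 library, coloured by group. Malat1 spans 169 to 1481 CPM over the 12 libraries, 1810008I18Rik and Gm31583 have all 3 ANG8 libraries below every other library, and AU020206 has all 3 ANG8 libraries above every other library.

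Members with a described role showed no change called by edgeR. Role lists, chosen with earlier results of these data known, held 19 members, and none was called by edgeR in any comparison. At an unadjusted p under 0.05, edgeR counted 4 of the 19 for ANG8 against Ad_GFP, 0 for shANG8 against shCtrl and 0 for shCtrl against Ad_GFP. Over all tested genes that p was met by 27.7%, 7.93% and 8.76% in these comparisons. In the same order DESeq2 called 2, 0 and 0 and limma voom called 0 in each. For the difference between the 2 arms, described further on, edgeR counted 2 of the 19 at that p, beside 21.9% of all tested genes, DESeq2 called 2 and limma voom 0. 1700020I14Rik, known as Cyrano or Oip5os1, which directs the decay of microRNA miR-7, was among the steadiest members, at 44.8, 47.3 and 42.1 CPM in ANG8 livers, against 52.0, 53.2 and 54.3 CPM in Ad_GFP livers. The ANG8 values were all below the Ad_GFP values by a small margin (log2 fold change -0.25, SE 0.16, adjusted p = 0.322, edgeR). 2900097C17Rik, known as Norad, which binds Pumilio proteins, stood at 44.9, 50.7 and 44.3 CPM in ANG8 livers, against 43.8, 30.8 and 32.7 CPM in Ad_GFP livers (log2 fold change 0.38, SE 0.18, adjusted p = 0.184). It has a near-identical processed copy, Gm7292, so its level is uncertain. Liver metabolism lincRNAs of the lists contributed 0 members.

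RNAs with a translated short reading frame formed another small class. AW112010, which in mouse macrophages encodes a protein from a non-canonical reading frame, had 90.8, 119 and 144 CPM in ANG8 livers, against 85.4, 59.0 and 80.2 CPM in Ad_GFP livers. All 3 ANG8 values were the higher ones, and the difference missed the threshold (log2 fold change 0.66, SE 0.22, adjusted p = 0.0552, edgeR). 1810058I24Rik, which encodes a mitochondrial micropeptide, stood at 99.4, 103 and 116 CPM in ANG8 livers, against 131, 99.95 and 126 CPM in Ad_GFP livers, groups that overlapped (log2 fold change -0.17, SE 0.16).

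The small nucleolar RNA hosts, genes whose introns release guides for ribosomal RNA modification, moved little. Snhg6, Snhg12, Snhg18, Snhg20 and Epb41l4aos had log2 fold changes of 0.33, 0.24, 0.47, 0.27 and 0.04 for ANG8 against Ad_GFP, with adjusted p from 0.319 to 0.956 by edgeR. Meg3, the maternally expressed RNA of an imprinted locus, had a log2 fold change of 0.13 (SE 0.32). Ftx and Jpx, genes of the X inactivation centre, had -0.17 (SE 0.37) and -0.78 (SE 0.50). Mirt1 had -0.11 (SE 0.42). The rows of Meg3, Ftx, Jpx, Mirt1, Snhg6, Snhg12 and Snhg20 share sequence or exon overlap with other annotated genes and are uncertain, as is Pvt1. Pvt1, the neighbour of Myc, stood at 3.84, 7.13 and 5.70 CPM in ANG8 livers, against 2.34, 3.63 and 3.63 CPM in Ad_GFP livers. Its ANG8 values were all above its Ad_GFP values, without a call (log2 fold change 0.80, SE 0.33, adjusted p = 0.123, edgeR).

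Of the 189 members, 9 enclose a RefSeq microRNA hairpin on their own strand. A microRNA pairs with target messengers through its seed, bases 2 to 8, which is printed in capitals below to show which hosts could feed the same seed family. The sequences are from RefSeq on GRCm38.p6, and the counts here are of the host gene rows and not of mature microRNAs. Mir142hg carries the blood-cell microRNA miR-142, and Mir17hg carries the miR-17 to miR-92 cluster, where miR-17-5p and miR-20a-5p share a seed, as do miR-19a-3p and miR-19b-3p. 6720427I07Rik, AL805899.1 and E130102H24Rik enclose let-7d, miR-31 and miR-101a.
miR-142a-5p: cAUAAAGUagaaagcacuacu
miR-142a-3p: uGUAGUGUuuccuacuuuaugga
miR-17-5p: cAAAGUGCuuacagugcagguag
miR-20a-5p: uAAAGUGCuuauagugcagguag
miR-18a-5p: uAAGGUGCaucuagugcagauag
miR-19a-3p: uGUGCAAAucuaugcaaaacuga
miR-19b-3p: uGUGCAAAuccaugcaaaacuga
miR-92a-3p: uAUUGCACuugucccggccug
let-7d-5p: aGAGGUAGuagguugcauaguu
miR-31-5p: aGGCAAGAugcuggcauagcug
miR-101a-3p: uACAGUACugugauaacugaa

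Mir142hg stood at 11.3, 10.6 and 7.58 CPM in ANG8 livers, against 5.69, 4.29 and 6.46 CPM in Ad_GFP livers. The groups did not overlap, and the difference missed the threshold (log2 fold change 0.84, SE 0.29, adjusted p = 0.0654, edgeR). In the knockdown arm it stood at 3.79, 2.83 and 3.45 CPM in shANG8 livers, against 5.29, 2.87 and 5.70 CPM in shCtrl livers, which overlapped. Mir17hg overlapped too, at 4.85, 3.77 and 5.28 CPM in ANG8 livers, against 2.02, 9.03 and 9.55 CPM in Ad_GFP livers. The 9 hosts as a class had a median log2 fold change of -0.12 for ANG8 against Ad_GFP, 0.01 for shANG8 against shCtrl and -0.38 for shCtrl against Ad_GFP, and edgeR called 0 of them in each. At an unadjusted p under 0.05, edgeR counted 1, 1 and 3 of the 9, beside 27.7%, 7.93% and 8.76% of all tested genes, DESeq2 called 1, 0 and 1, and limma voom called 0, 0 and 0. Mature microRNAs inside a host row share its strand, so reads of a hairpin could be assigned to either row.

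The question of the overexpression comparison was what a liver given more ANGPTL8 changes. In ANG8 livers 24 lincRNAs fell and 5 rose against Ad_GFP livers. The 29 called members are 15.3% of the 189, beside 13.5% of all tested genes; 12.7% of members fell, beside 6.39% of all tested genes, and 2.65% rose, beside 7.08%. DESeq2 called 41 members, beside 17.5% of all tested genes, and limma voom 28, beside 14.7%. By DESeq2 15.9% of members fell (30), beside 8.42% of all tested genes, and 5.82% rose (11), beside 9.09%. By limma voom 10.1% fell (19), beside 6.22%, and 4.76% rose (9), beside 8.43%. Without a filter on low counts 16.4% fell (31), beside 4.31%, and 5.29% rose (10), beside 4.83%. The median log2 fold change of the members was -0.25, against -0.00 for all tested genes, and 129 of the 189 were below 0. All 29 called members had ANG8 and Ad_GFP libraries that did not overlap. Called or not, 28.6% of the 189 had all ANG8 libraries below all Ad_GFP libraries, beside 16.2% of all tested genes. All ANG8 libraries were above in 9.52% of members, beside 17.9%. The 2 control viruses also differed in this way. All shCtrl libraries were below all Ad_GFP libraries in 15.9% of members, beside 8.45% of all tested genes. They were above in 5.29% of members, beside 7.66%. Both comparisons use the same Ad_GFP libraries. Of the calls, 21 of the falls and 4 of the rises were at least 2-fold. Among protein-coding genes the median was 0.01, while the 331 tested genes of antisense biotype had a median of -0.36. Of these antisense genes 24 were lower in ANG8 livers (7.25%), near the 6.39% of all tested genes, and 4 were higher (1.21%), beside 7.08%.

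The rule that chose the members weighs on the direction of these counts. A lincRNA present only in ANG8 livers reaches 20 counts in 3 libraries and cannot be a member, whereas a lincRNA missing only there can. Of the lincRNAs kept out, 9 had 20 counts in all 3 ANG8 libraries and 4 had 20 counts in all 3 Ad_GFP libraries. Of the members, 7 reached 20 counts in no ANG8 library and 0 in no Ad_GFP library. Among the 94 members with 20 counts in all 12 libraries, 16 fell (17%) and 2 rose (2.13%), with a median of -0.25. Over all 390 tested lincRNAs, 25 fell (6.41%) and 8 rose (2.05%), beside 6.39% and 7.08% of all tested genes. In all 8.46% of these lincRNAs were called, with a median of -0.19. Of the 201 tested lincRNAs that are not members, 1 fell (0.498%) and 3 rose (1.49%). Their median log2 CPM was -0.17, against 1.85 for members. Among the 124 members with no exon overlap and no copy among annotated transcripts, 18 fell (14.5%) and 4 rose (3.23%).

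The count also leaned on single libraries. It was 17, 15 and 18 without the first, the second and the third ANG8 library, 15 and 17 without the first and the second Ad_GFP library, and 25 without the third. The share of all tested genes called in the same refits ran from 6.57% to 11.1%. The members' median stayed below 0 in all of them, from -0.44 to -0.16. Without any 1 of the 12 libraries, 10 of the 29 members kept their call.

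**Figure D2:**
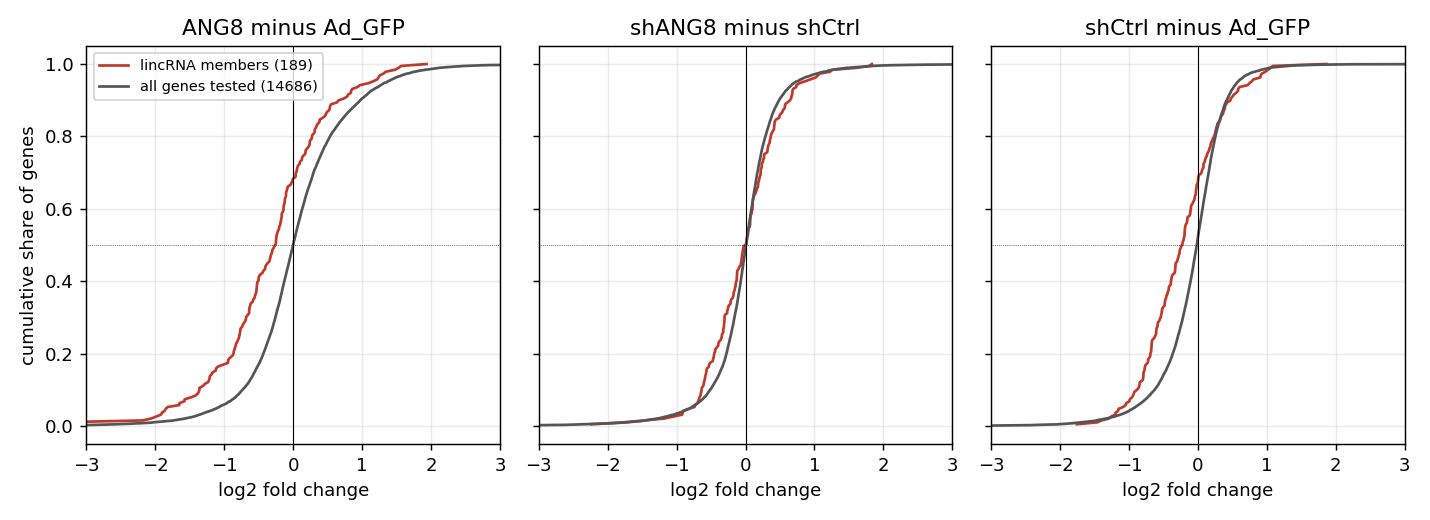
Cumulative share of genes (vertical axis) by log2 fold change (horizontal axis, drawn from -3 to 3) in 3 comparisons, for the 189 members in red and all 14686 tested genes in grey. The members' curve lies to the left in ANG8 minus Ad_GFP (medians -0.25 and -0.00) and in shCtrl minus Ad_GFP (-0.22 and -0.02), which share the Ad_GFP libraries, and crosses the grey curve near 0 in shANG8 minus shCtrl (0.01 and 0.01).

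**Figure D3:**
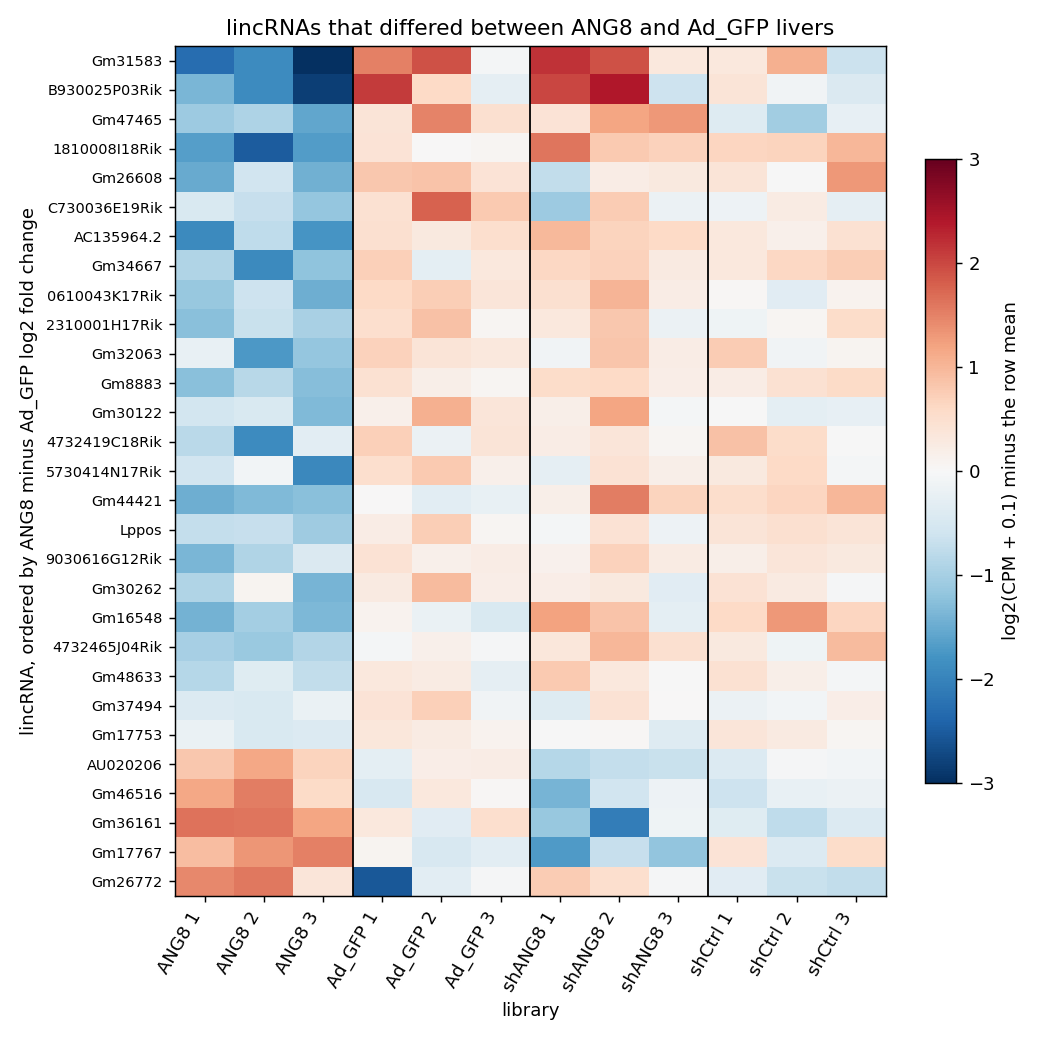
The 29 members called between ANG8 and Ad_GFP livers (rows, ordered by log2 fold change) in the 12 libraries (columns); colour is log2(CPM + 0.1) minus the row mean, blue low and red high. The upper 24 rows are blue in the ANG8 columns and the lower 5 are red there, as the calls require.

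The steadiest falls were those of 9 members that kept their call under every alternative fit and without any 1 library. 1810008I18Rik (chr7:65803111-65806449, plus strand) is the most abundant of them, with 13.8, 7.62 and 13.5 CPM in ANG8 livers, against 57.2, 43.6 and 45.1 CPM in Ad_GFP livers. Every ANG8 library was far below the lowest Ad_GFP library, and the log2 fold change was -2.06 (SE 0.26, adjusted p = 0.000206, edgeR). It stood at 132, 74.4 and 69.8 CPM in shANG8 livers, against 67.5, 68.4 and 86.3 CPM in shCtrl livers, groups that overlapped. AC135964.2 (chr16:86770227-86806513, minus strand) stood at 2.90, 6.56 and 3.21 CPM in ANG8 livers, against 15.6, 13.7 and 15.9 CPM in Ad_GFP livers, again without overlap (log2 fold change -1.85, SE 0.26, adjusted p = 0.000382). Gm8883 (chr1:71888112-71891204, plus strand) stood at 4.71, 6.31 and 4.61 CPM in ANG8 livers, against 15.6, 12.8 and 11.8 CPM in Ad_GFP livers. Its 3 ANG8 values lay close together and well under the others (log2 fold change -1.37, SE 0.21, adjusted p = 0.000731).

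Gm47465 stood at 0.797, 0.902 and 0.546 CPM in ANG8 livers, against 2.40, 5.26 and 2.56 CPM in Ad_GFP livers (log2 fold change -2.18, SE 0.47, adjusted p = 0.00562, edgeR). It is a low gene whose exons overlap the triosephosphate isomerase copy Tpi-rs4 on the other strand, so its reads are uncertain. Gm34667 stood at 1.74, 0.820 and 1.40 CPM in ANG8 livers, against 5.57, 2.74 and 4.24 CPM in Ad_GFP livers (log2 fold change -1.65, SE 0.36, adjusted p = 0.00628). 2310001H17Rik, which overlaps Gm47861 on the other strand, stood at 5.21, 7.95 and 6.37 CPM in ANG8 livers, against 17.97, 23.4 and 13.2 CPM in Ad_GFP livers. In each of these genes all 3 ANG8 libraries were the lower ones (log2 fold change of 2310001H17Rik -1.48, SE 0.28, adjusted p = 0.00263). Lppos, whose exons overlap those of the cytoskeletal gene Lpp on the other strand and which is named outside the rule for named genes, stood at 6.45, 6.56 and 5.03 CPM in ANG8 livers, against 12.3, 17.6 and 11.1 CPM in Ad_GFP livers (log2 fold change -1.19, SE 0.23, adjusted p = 0.00314). Gm26608 and 0610043K17Rik complete the 9 and are described with their neighbours.

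The 2 largest falls rested on scattered values. Gm31583 (chr16:24085083-24090089, minus strand), whose nearest protein-coding gene is the repressor gene Bcl6, had 3.40, 4.51 and 0.728 CPM in ANG8 livers, against 48.8, 63.7 and 16.2 CPM in Ad_GFP livers. The third library was the lowest of each of the 4 groups, with 21.2 CPM in shANG8 and 10.9 CPM in shCtrl livers. The log2 fold change was -3.93 (SE 0.86, adjusted p = 0.0185, edgeR), and the call was lost without ANG8 library 1 (-4.10), ANG8 library 3 (-3.46), Ad_GFP library 1 (-3.83) or Ad_GFP library 2 (-3.54). B930025P03Rik (chr8:10870422-10882454, minus strand) had 0.507, 0.328 and 0.121 CPM in ANG8 livers, against 6.58, 2.30 and 1.21 CPM in Ad_GFP livers. Its Ad_GFP values spread widely (log2 fold change -3.40, SE 0.85, adjusted p = 0.0178), and without Ad_GFP library 1 the change was -2.46 and not called; the call was also lost without ANG8 library 2 (-3.43) or ANG8 library 3 (-2.995). Limma voom called neither gene (adjusted p = 0.0644 for Gm31583 and 0.221 for B930025P03Rik). C730036E19Rik had 10.6, 9.02 and 6.43 CPM in ANG8 livers, against 19.9, 49.6 and 25.2 CPM in Ad_GFP livers (log2 fold change -1.86, SE 0.45, adjusted p = 0.0182). It was not called without ANG8 library 2 (-1.89) or ANG8 library 3 (-1.70).

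The other falls in ANG8 livers were smaller. Gm32063 had a log2 fold change of -1.39 (SE 0.36, adjusted p = 0.0167, edgeR) and was not called without ANG8 library 2 (-1.10), ANG8 library 3 (-1.28) or Ad_GFP library 1 (-1.26). Gm30122 had -1.36 (SE 0.42, adjusted p = 0.0388) and was not called without any of 6 libraries, namely the 3 of ANG8, the second and the third of Ad_GFP and the second of shCtrl (-1.52 to -1.04). Gm30262, the twelfth member by mean CPM, had 19.8, 39.4 and 14.1 CPM in ANG8 livers, against 44.7, 72.0 and 42.7 CPM in Ad_GFP livers. The highest ANG8 library came close to the lowest Ad_GFP library, and the call (log2 fold change -1.12, SE 0.33, adjusted p = 0.0399) was lost in 7 of the refits without 1 library, with values from -1.24 to -0.85. It is named here, outside the rule for named genes, because of its level.

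Of the 5 rises, AU020206 was the most abundant and the 1 that kept its call in every alternative fit. AU020206 (chr7:75769038-75782099, minus strand) stood at 47.4, 60.3 and 42.6 CPM in ANG8 livers, against 22.0, 30.7 and 31.3 CPM in Ad_GFP livers. All ANG8 libraries were above all 9 others (log2 fold change 0.84, SE 0.18, adjusted p = 0.00631, edgeR). Gm46516 stood at 14.5, 18.7 and 9.52 CPM in ANG8 livers, against 4.56, 7.996 and 6.52 CPM in Ad_GFP livers (log2 fold change 1.16, SE 0.32, adjusted p = 0.0232). Gm36161, which overlaps Gm21370 on the other strand, stood at 8.40, 8.20 and 6.13 CPM in ANG8 livers, against 3.29, 2.07 and 3.77 CPM in Ad_GFP livers (log2 fold change 1.31, SE 0.40, adjusted p = 0.0372). The groups of both genes did not overlap, and the ANG8 libraries stood above the shANG8 and shCtrl libraries as well. Gm26772 stood at 4.49, 4.92 and 2.06 CPM in ANG8 livers, against 0.190, 1.26 and 1.55 CPM in Ad_GFP livers (log2 fold change 1.93, SE 0.56, adjusted p = 0.0299). Gm46516 lost its call without ANG8 library 1 (1.15) or 2 (0.92) or Ad_GFP library 1 (0.97) or 3 (1.18), Gm36161 without any of the 6 libraries of the comparison (1.10 to 1.49), and Gm26772 without ANG8 library 1 (1.797) or 2 (1.71) or Ad_GFP library 1 (1.43) or 2 (2.13) and in the fit of the compared groups only.

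Promoter windows, 250 bases before to 50 bases after a RefSeq start (GRCm38.p6), were found by symbol for 112 members, and for 88 the RefSeq start lay within 500 bases of the deposited start. The windows were searched on both strands for the TATA box (TATAAA), the CCAAT box (CCAAT), the E-box (CACGTG, which reads the same on both strands), an antioxidant response core (TGACNNNGC) and the interferon response core, which is named only. Of the 88 windows, 12 held the TATA box (13.6%), beside 13.6% of 32851 windows of all genes in the RefSeq table. The CCAAT box was in 35 (39.8%), beside 37.4%, the E-box in 13 (14.8%), beside 7.15%, the antioxidant core in 11, beside 12.4% of all windows, and the interferon core in 2 (2.27%), beside 3.44%. Among the 13 windows of members that fell in ANG8 livers, 3 held a TATA box, 4 a CCAAT box and 1 an E-box. The median content of C and G was 52.2% in member windows and 52.7% in all windows. A match is a description of letters and no evidence of binding.

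The windows of 4 called members are printed, a pair of the steadiest falls, the largest fall and the steadiest rise, with capitals for every match to the searched motifs. They are chr7:65802787-65803086 (plus strand, 1810008I18Rik), chr1:71887862-71888161 (plus strand, Gm8883), chr16:24090016-24090315 (minus strand, Gm31583) and chr7:75782071-75782370 (minus strand, AU020206).
1810008I18Rik: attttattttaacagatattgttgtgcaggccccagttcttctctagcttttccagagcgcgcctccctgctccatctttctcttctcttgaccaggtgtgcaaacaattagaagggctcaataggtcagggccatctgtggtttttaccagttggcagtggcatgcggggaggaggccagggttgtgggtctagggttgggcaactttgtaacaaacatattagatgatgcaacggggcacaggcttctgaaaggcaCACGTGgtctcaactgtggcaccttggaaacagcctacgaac
Gm8883: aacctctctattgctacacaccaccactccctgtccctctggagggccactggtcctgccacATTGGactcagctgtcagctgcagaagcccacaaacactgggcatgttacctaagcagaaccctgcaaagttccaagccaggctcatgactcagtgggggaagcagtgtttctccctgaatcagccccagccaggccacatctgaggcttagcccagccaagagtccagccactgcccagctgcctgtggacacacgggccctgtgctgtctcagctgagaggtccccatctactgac
Gm31583: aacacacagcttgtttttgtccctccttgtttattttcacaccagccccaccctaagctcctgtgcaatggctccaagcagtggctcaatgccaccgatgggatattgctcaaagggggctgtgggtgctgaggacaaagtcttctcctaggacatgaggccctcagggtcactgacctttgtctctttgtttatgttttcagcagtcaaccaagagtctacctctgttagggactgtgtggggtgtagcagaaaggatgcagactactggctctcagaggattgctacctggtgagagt
AU020206: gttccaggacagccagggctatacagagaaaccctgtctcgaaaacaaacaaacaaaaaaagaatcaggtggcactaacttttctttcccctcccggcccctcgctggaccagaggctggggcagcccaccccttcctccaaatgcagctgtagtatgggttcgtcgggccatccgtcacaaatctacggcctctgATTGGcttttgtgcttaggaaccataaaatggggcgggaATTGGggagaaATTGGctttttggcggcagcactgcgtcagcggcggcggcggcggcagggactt
The window of 1810008I18Rik holds 1 E-box, downstream of the RefSeq start and upstream of the deposited start. The window of Gm8883 holds 1 CCAAT box, which reads ATTGG on the printed strand. The window of AU020206 holds 3 CCAAT boxes in that orientation and 15 CG dinucleotides. The window of Gm31583 holds none of the searched letters and 1 CG dinucleotide.

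Called members in ANG8 livers were then set beside their nearest protein-coding genes. A tested neighbour was found for 153 members. Of the 23 called members among them, 8 had a neighbour that was called in the same direction and 0 had 1 called in the opposite direction. Of the 130 members that were not called, 16 had a called neighbour. Over all tested protein-coding genes 6.48% were called lower and 7.65% higher. Over the 153 pairs the Pearson correlation of the log2 fold changes was 0.415, a description across gene pairs that share the same 6 libraries. The 8 pairs below were chosen after their values were seen.

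Gm26608 (chr5:28019465-28071105, minus strand) starts 258 bases from Insig1, which lies on the plus strand and encodes the endoplasmic reticulum protein that holds back the sterol-sensing SREBP complex. Gm26608 stood at 1.16, 2.29 and 1.21 CPM in ANG8 livers, against 6.2, 6.44 and 4.71 CPM in Ad_GFP livers (log2 fold change -1.90, SE 0.41, adjusted p = 0.00624, edgeR). Insig1 stood at 107, 126 and 99.1 CPM in ANG8 livers, against 394, 136 and 231 CPM in Ad_GFP livers (log2 fold change -1.20, SE 0.34, adjusted p = 0.0314). Neither gene's groups overlapped, although the second Ad_GFP library of Insig1 came near the ANG8 values. The RefSeq window of Insig1 (chr5:28071162-28071461, plus strand, GRCm38.p6) covers most of the stretch between the starts and is printed with its CCAAT box, which reads ATTGG on this strand, and its E-box in capitals.
Insig1: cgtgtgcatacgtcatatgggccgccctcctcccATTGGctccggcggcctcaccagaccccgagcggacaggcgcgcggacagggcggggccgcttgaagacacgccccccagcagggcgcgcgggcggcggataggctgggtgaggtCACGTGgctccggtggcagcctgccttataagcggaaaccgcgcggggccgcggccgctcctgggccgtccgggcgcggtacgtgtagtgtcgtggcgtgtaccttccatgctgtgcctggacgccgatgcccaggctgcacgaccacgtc

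0610043K17Rik (chr4:101353783-101399181, plus strand) lies upstream of Ak4, a mitochondrial adenylate kinase, on the same strand with 20095 bases between them. The lincRNA stood at 2.03, 2.95 and 1.58 CPM in ANG8 livers, against 6.90, 7.70 and 5.85 CPM in Ad_GFP livers (log2 fold change -1.65, SE 0.31, adjusted p = 0.00264, edgeR). Ak4 stood at 44.4, 52.6 and 44.6 CPM in ANG8 livers, against 106, 108 and 91.6 CPM in Ad_GFP livers (log2 fold change -1.11, SE 0.16, adjusted p = 0.000428). Both genes fell by more than 2-fold with groups well apart. In the knockdown arm 0610043K17Rik stood at 6.44, 9.36 and 5.34 CPM in shANG8 livers, against 4.68, 3.55 and 4.94 CPM in shCtrl livers, and Ak4 at 136, 114 and 136 CPM in shANG8 livers, against 73.2, 89.3 and 92.3 CPM in shCtrl livers. Those groups did not overlap either, and neither gene was called there (log2 fold changes 0.68, SE 0.30, and 0.60, SE 0.16).

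Irs2, the insulin receptor substrate gene nearest to B930025P03Rik with 102226 bases between them, stood at 1.52, 2.95 and 2.85 CPM in ANG8 livers, against 12.7, 8.29 and 3.63 CPM in Ad_GFP livers (log2 fold change -1.75, SE 0.47, adjusted p = 0.0259, edgeR). Klf15, a transcription factor of hepatic amino acid and glucose metabolism, lies on the same strand upstream of Gm44421, and stood at 73.6, 70.2 and 82.6 CPM in ANG8 livers, against 151, 141 and 141 CPM in Ad_GFP livers (log2 fold change -0.93, SE 0.20, adjusted p = 0.00621). Gm44421 stood at 2.25, 2.46 and 2.61 CPM in ANG8 livers, against 6.39, 5.11 and 5.45 CPM in Ad_GFP livers (log2 fold change -1.21, SE 0.32, adjusted p = 0.0181). No group of these genes overlapped, and the call of Gm44421 was lost without ANG8 library 1 (-1.15), ANG8 library 2 (-1.21) or Ad_GFP library 1 (-1.11). Fn1, which encodes fibronectin and lies 234911 bases from Gm8883, had a log2 fold change of -0.92 (SE 0.20, adjusted p = 0.00583).

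The lincRNAs Gm44421 and Gm17753 are outside the rule for named genes and stand here as the partners of Klf15 and H1f0. H1f0, a linker histone gene that starts 2668 bases from Gm17753 on the other strand, had a log2 fold change of -0.78 (SE 0.16, adjusted p = 0.0051, edgeR), beside -0.59 (SE 0.18, adjusted p = 0.0362) for Gm17753. Gm17753 was not called without any of the 3 ANG8 libraries, Ad_GFP library 1 or 2, or shCtrl library 2 (-0.67 to -0.53). F5, coagulation factor V, had -0.72 (SE 0.18, adjusted p = 0.0129), beside -1.12 (SE 0.36, adjusted p = 0.0471) for Gm16548. Gm16548 overlaps exons of F5 and of Selp on the other strand, so its reads and theirs cannot be told apart if the counting ignored strand, and it was not called by limma voom or without any 1 of 9 libraries, those of ANG8, Ad_GFP and shCtrl (-1.25 to -0.96). Nabp1, which encodes a single-stranded DNA binding protein, was the sole called neighbour of a rise, at 36.1, 43.0 and 46.2 CPM in ANG8 livers, against 23.0, 22.7 and 28.7 CPM in Ad_GFP livers (log2 fold change 0.75, SE 0.17, adjusted p = 0.00663). Its lincRNA, Gm17767, is described with the difference between the arms.

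**Figure D4:**
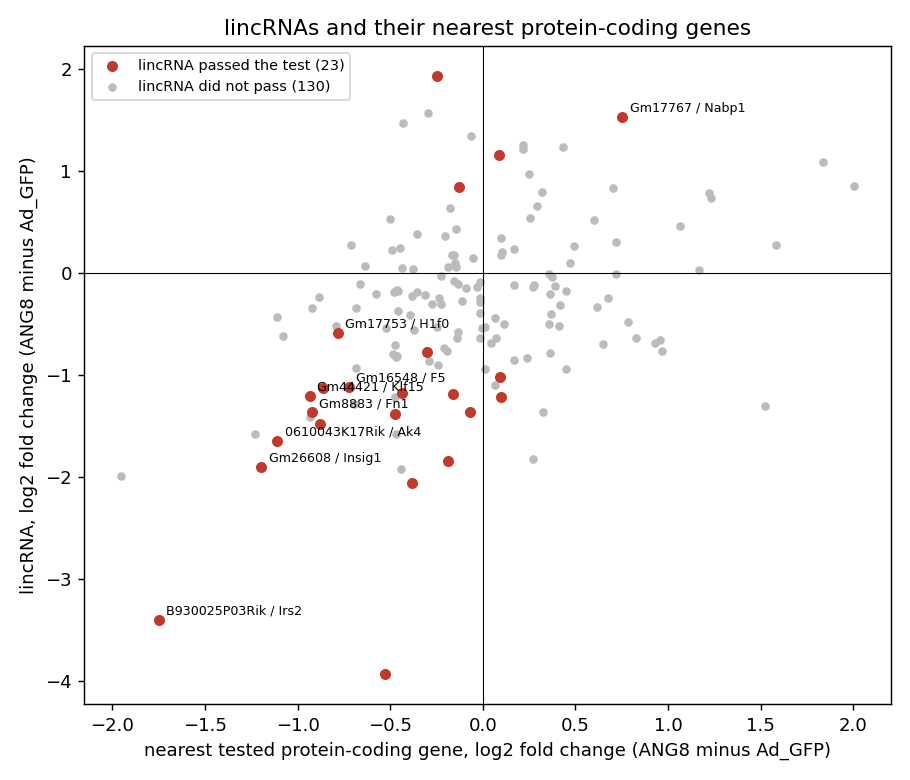
Log2 fold change of ANG8 minus Ad_GFP for 153 members (vertical axis) against their nearest tested protein-coding gene (horizontal axis); red points are the 23 called members, grey points the 130 others. The 8 labelled pairs, both called, lie in the lower left (7) or the upper right (1).

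No member was called in the knockdown comparison, which asked what a liver with less Angptl8 changes. EdgeR called 0 of 189 for shANG8 against shCtrl, beside 0.191% of all tested genes. At an unadjusted p under 0.05 it counted 16 of the 189 members (9 higher and 7 lower), beside 7.93% of all tested genes. Limma voom called 0, beside 0.17% of all tested genes, and DESeq2 called 1, Gm13431, beside 0.695%. The members' median log2 fold change was 0.01, as it was for all tested genes. Gm13431 stood at 0.455, 0.393 and 0.211 CPM in shANG8 livers, against 1.83, 1.78 and 1.44 CPM in shCtrl livers. These low groups did not overlap (log2 fold change -2.24, SE 0.50, adjusted p = 0.112, edgeR). The next smallest p-values belonged to Gm47465 (log2 fold change 1.60, SE 0.44, adjusted p = 0.247), Gm17767 (-1.46, SE 0.41, 0.276), AU020206 (-0.59, SE 0.19, 0.389) and E130102H24Rik (1.05, SE 0.41, 0.519).

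The effect of the overexpression virus and that of the knockdown virus were then compared directly, in arms that share no library. The difference, ANG8 minus Ad_GFP less shANG8 minus shCtrl, was called for 14 members (7.41%), beside 6.62% of all tested genes; 10 were lower (5.29%), beside 2.90%, and 4 were higher (2.12%), beside 3.72%. In each of the 14 the overexpression and knockdown estimates lay on opposite sides of 0, which choosing members by their difference favours. For Gm8883 the ANG8 effect alone was -1.37, close to its difference of -1.40. The estimates were largest for B930025P03Rik (-5.20, SE 1.12, adjusted p = 0.0158, edgeR, and -4.25 without Ad_GFP library 1) and Gm31583 (-5.19, SE 1.12, adjusted p = 0.0306). Gm47465 followed with -3.78 (SE 0.64, adjusted p = 0.00317). It stood at 2.43, 4.25 and 4.57 CPM in shANG8 livers, against 1.36, 0.820 and 1.52 CPM in shCtrl livers, higher in every shANG8 library, while it was lower in every ANG8 library than in any Ad_GFP library. 1810008I18Rik (-2.37, SE 0.36), 0610043K17Rik (-2.33, SE 0.43), AC135964.2 (-2.29, SE 0.36), Gm30122 (-2.09, SE 0.58), 2310001H17Rik (-1.67, SE 0.39) and Gm8883 (-1.40, SE 0.29) were the other members whose ANG8 effect had also been called. Without shANG8 library 3 the count was 22, beside 8.06% of all tested genes. Without any 1 of the other libraries it ran from 10 to 15, beside 3.12% to 6.05%. DESeq2 called 27, beside 10.5% of all tested genes, limma voom called 12, beside 6.51%, and 29 were called without a filter on low counts, beside 5.79%.

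Among the higher members, Gm17767 (chr1:51507086-51596718, minus strand) stood at 4.27, 5.66 and 6.43 CPM in ANG8 livers, against 2.34, 1.55 and 1.75 CPM in Ad_GFP livers. It stood at 0.606, 1.34 and 0.914 CPM in shANG8 livers, against 2.99, 1.64 and 3.27 CPM in shCtrl livers. No groups of a pair overlapped, and the difference was 2.99 (SE 0.57, adjusted p = 0.00601, edgeR), in which the overexpression part, 1.53 (SE 0.38, adjusted p = 0.0147), lost its call without ANG8 library 3 (1.37) or Ad_GFP library 2 (1.41). AU020206, given above for ANG8, stood at 14.7, 16.4 and 16.9 CPM in shANG8 livers, against 20.2, 26.3 and 25.6 CPM in shCtrl livers. It was lower in every shANG8 library than in any shCtrl library (difference 1.42, SE 0.26, adjusted p = 0.00513). Gm13431 had 3.33, 2.62 and 2.37 CPM in ANG8 livers, against 1.46, 2.52 and 1.82 CPM in Ad_GFP livers, groups that overlapped (difference 2.76, SE 0.65, adjusted p = 0.0183, and 2.61 with no call without ANG8 library 1). Its neighbour Ptgs1, the cyclooxygenase-1 gene, had a difference of its own that was called (adjusted p = 0.0234).

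Gm34934 (chr14:46866576-46882757, minus strand) starts 97 bases from Samd4, a translational repressor gene on the plus strand. Gm34934 stood at 7.97, 8.20 and 6.43 CPM in ANG8 livers, against 4.75, 3.92 and 3.77 CPM in Ad_GFP livers, and at 2.65, 3.54 and 3.52 CPM in shANG8 livers, against 3.46, 6.56 and 5.09 CPM in shCtrl livers. The ANG8 libraries were above all Ad_GFP libraries, while shANG8 and shCtrl overlapped. The overexpression effect missed the threshold (log2 fold change 0.86, SE 0.28, adjusted p = 0.0538, edgeR) and the difference was called (1.49, SE 0.41, adjusted p = 0.036). Samd4 stood at 9.56, 11.3 and 6.73 CPM in ANG8 livers, against 2.28, 2.22 and 2.35 CPM in Ad_GFP livers (log2 fold change 2.003, SE 0.30, adjusted p = 0.00059). The RefSeq window of Gm34934 (chr14:46882750-46883049, minus strand, GRCm38.p6) holds both starts, 72.3% C and G, 32 CG dinucleotides and none of the searched motifs, so it is all in lower case.
Gm34934: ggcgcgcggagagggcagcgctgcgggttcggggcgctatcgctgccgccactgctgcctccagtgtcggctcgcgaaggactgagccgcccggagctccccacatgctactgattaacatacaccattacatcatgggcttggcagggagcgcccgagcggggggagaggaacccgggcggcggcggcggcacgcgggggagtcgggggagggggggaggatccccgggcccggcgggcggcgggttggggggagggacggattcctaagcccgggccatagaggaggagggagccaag
1700001L05Rik, the last of the 14, stood at 7.97, 7.70 and 8.43 CPM in ANG8 livers, against 16.3, 15.8 and 8.20 CPM in Ad_GFP livers, and its difference was -1.35 (SE 0.35, adjusted p = 0.028). The third Ad_GFP library lay among the ANG8 values. Several calls of the difference hung on single libraries. 1700001L05Rik lost its call without any 1 of 9 libraries (-1.38 to -1.18), all but the third of ANG8, Ad_GFP and shANG8. Gm34934 lost it without any of 9 (1.28 to 1.60), all but ANG8 library 3, shANG8 library 3 and shCtrl library 1. Gm31583 lost it without any of 9 (-5.65 to -4.71), all but Ad_GFP library 3, shANG8 library 3 and shCtrl library 2. Gm30122 lost it without any of 8 (-2.24 to -1.61), those of ANG8 and shCtrl and the second of Ad_GFP and shANG8, and 2310001H17Rik without ANG8 library 1, shCtrl library 1 or shCtrl library 2 (-1.58 to -1.53). Limma voom did not call the difference of Gm31583, B930025P03Rik or Gm30122.

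**Figure D5:**
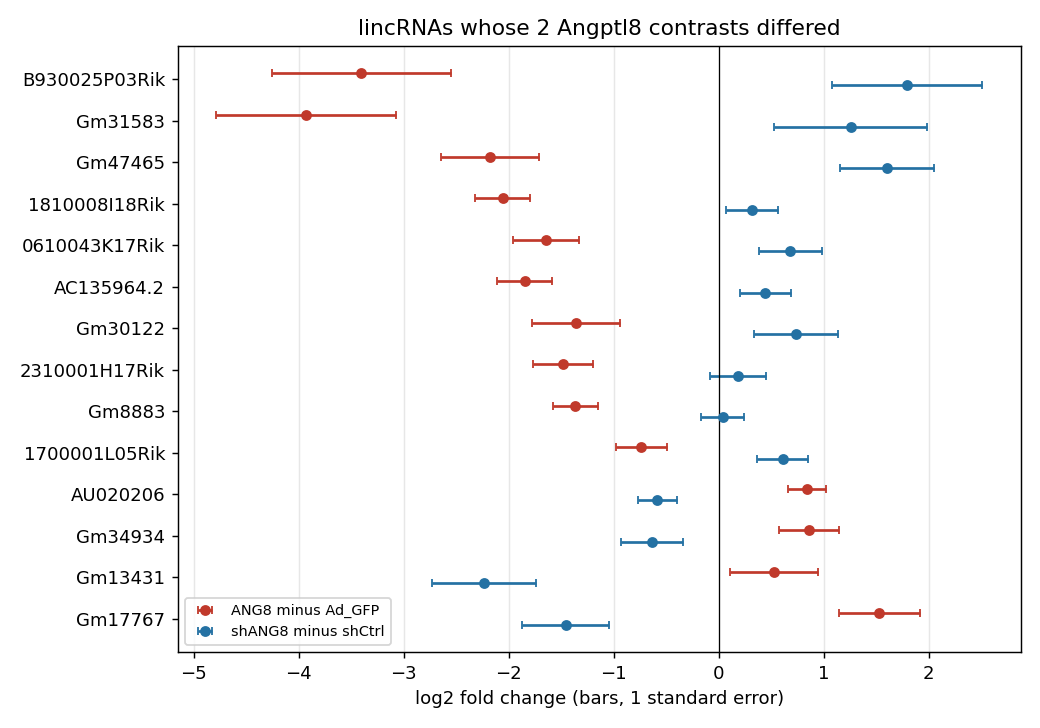
Log2 fold changes (points) with 1 SE (bars) of ANG8 minus Ad_GFP in red and shANG8 minus shCtrl in blue, for the 14 members whose effects differed between the arms. The red and blue points lie on opposite sides of 0 in every row, which choosing members by their difference favours. EdgeR called no blue effect with all 12 libraries, the low-count filter and no replicate block.

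The control viruses were set against each other as a background. EdgeR called 0 of 189 members for shCtrl against Ad_GFP, beside 0% of all tested genes. At an unadjusted p under 0.05 it counted 28 of the 189 members (20 lower and 8 higher), beside 8.76% of all tested genes. Limma voom called 0, beside 0% of all tested genes, and DESeq2 called 1, AL805899.1, beside 0.313%. The members' median log2 fold change was -0.22, against -0.02 for all tested genes, and 127 of 189 were below 0. This comparison shares the Ad_GFP libraries with ANG8 against Ad_GFP and the shCtrl libraries with the knockdown, so a level particular to either control group enters more than 1 comparison. The AL805899.1 row, which encloses miR-31, stood at 1.70, 2.05 and 1.29 CPM in shCtrl livers, against 3.67, 9.40 and 4.10 CPM in Ad_GFP livers. Every shCtrl library was the lower (log2 fold change -1.76, SE 0.45, adjusted p = 0.372, edgeR). The let-7d host 6720427I07Rik had -1.08 (SE 0.32), Gm47465 -1.46 (SE 0.44), Gm43672 -1.16 (SE 0.36) and Gm16548 1.06 (SE 0.33), each with an adjusted p of 0.442.

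Summed over all members, lincRNAs took 0.345%, 0.416% and 0.293% of the counts in ANG8 livers, against 0.269%, 0.333% and 0.267% in Ad_GFP livers. The groups overlapped, and the mean difference of 0.0616 percentage points had an exact two-sided permutation p = 0.2, where 0.1 is the smallest that 3 against 3 libraries allow. Without ANG8 library 2 the difference was 0.0293 percentage points. Leaving out Gm26917, the row at the ribosomal RNA interval, gave 0.0418 percentage points (exact permutation p = 0.7). Leaving out the most counted member, Neat1, gave 0.0490 (exact permutation p = 0.2). The share was 0.217%, 0.335% and 0.225% in shANG8 livers, against 0.2696%, 0.249% and 0.201% in shCtrl livers (exact permutation p = 0.8). That difference of 0.0193 percentage points was -0.0185 without shANG8 library 2 and -7.53e-05 without shCtrl library 3. Without Malat1 the shares were 0.298%, 0.274% and 0.273% in ANG8 livers, against 0.246%, 0.297% and 0.244% in Ad_GFP livers (exact permutation p = 0.3), an alternative chosen after seeing the data. Mitochondrial genes took 39.0%, 43.8% and 22.5% of the counts in ANG8 livers, against 19.8%, 34.9% and 26.4% in Ad_GFP livers, and 19.3% to 24.2% in the shANG8 and shCtrl libraries. As a share of the counts outside the mitochondrial genome, the members' difference between ANG8 and Ad_GFP livers was 0.158 percentage points (exact permutation p = 0.2). The 3 most counted members held 52.5%, 63.1% and 49.0% of all member counts in ANG8 livers, against 38.9%, 45.9% and 39.5% in Ad_GFP livers.

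Macrophage, T and NK cell, dividing cell and hepatocyte markers held called genes in the ANG8 group, while 7 other lists held 0 (B cell, endothelial, stellate, cholangiocyte, neutrophil, erythroid and pancreas). Over all tested genes 7.08% were called higher and 6.39% lower. These 7 lists are short, with 2 neutrophil genes and 1 pancreas gene tested. Their median log2 fold changes ran from -0.31 (B cell) to 2.03 (pancreas). The cholangiocyte list had 0.95, at 65.9 to 152.5 CPM in ANG8 livers, against 20.1 to 80.6 CPM in Ad_GFP livers. Of 13 macrophage markers, 10 were higher in ANG8 livers and 0 lower, with a summed level of 1091 to 1700 CPM in ANG8 livers, against 442 to 676 CPM in Ad_GFP livers. Of 12 T and NK cell markers, 7 were higher and 1 lower, at 152 to 174 CPM in ANG8 livers, against 55.2 to 86.1 CPM in Ad_GFP livers. Of 6 markers of dividing cells, 3 were higher, at 124 to 210 CPM in ANG8 livers, against 48.6 to 65.5 CPM in Ad_GFP livers, and of 10 hepatocyte markers, 6 were lower, at 25080 to 58490 CPM in ANG8 livers, against 40530 to 66230 CPM in Ad_GFP livers. Mir142hg and AW112010, known from blood cells and macrophages, were higher in every ANG8 library than in any Ad_GFP library without being called, and the part of these cells in any member's change was not tested. In bulk tissue, fewer cells of a type and less RNA per cell cannot be told apart. No marker of these 4 lists was at 0. For shANG8 against shCtrl 0 of these markers were called, beside 0.191% of all tested genes. The T and NK cell markers still summed to 47.4 to 60.6 CPM in shANG8 livers, against 78.9 to 90.0 CPM in shCtrl livers. Those sums did not overlap, and the median log2 fold change of that list was -0.70. The sums of the macrophage, dividing cell and hepatocyte markers overlapped between shANG8 and shCtrl livers.

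Genes that hold or remove such RNAs were looked up as well. Of 10 paraspeckle proteins, 10 nonsense-mediated decay factors and 16 tested parts of the nuclear RNA exosome and its adaptors, edgeR called 0 in any of the 4 comparisons. At an unadjusted p under 0.05 it counted 2 of these 36 for ANG8 against Ad_GFP, 2 for shANG8 against shCtrl, 0 for shCtrl against Ad_GFP and 4 for the difference, beside 27.7%, 7.93%, 8.76% and 21.9% of all tested genes. For the difference DESeq2 called 1 and limma voom 0. Their median log2 fold changes for ANG8 against Ad_GFP were 0.14, -0.01 and 0.06, beside -0.00 for all tested genes.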

How the data were processed

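RNA sequencing libraries of mouse liver were deposited as 1 table of raw, unscaled counts for 54532 genes. The submitters' processing notes name the build mm9, featureCounts 1.5.0-p3 and CASAVA 1.8.2. The aligner, the annotation release and the strand setting are not given in the sources at hand. Of the table's genes 54495 are in GENCODE vM21 (GRCm38), 53585 of them with identical coordinates, so positions are given as GRCm38. Total counts of 12537083 to 15144312 per library set the precision.

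EdgeR 4.0.16 (R 4.3.3) was run on the deposited counts of all 12 libraries: filterByExpr (14686 genes kept), TMM scaling, a robust quasi-likelihood fit and Benjamini-Hochberg adjustment over all tested genes. SE was taken from the fold change and its F statistic, as the absolute fold change over the root of F. The script was tested on simulated data. Alternatives were DESeq2 1.42.0, limma voom 3.58.1, RLE size factors, no low-count filter, mitochondrial genes left out, the compared groups only, a replicate block, and each library left out in turn. Copies were sought with blastn 2.17.0 among GENCODE vM21 transcripts, at 98% identity over at least 150 bases, and not in the genome sequence. Marker, role and partner lists were counted with no list test.

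The members and lists were chosen with earlier results of these data known. Named genes are the 10 most abundant members, up to 12 rises and 12 falls called in each comparison, the 5 smallest p-values where under 5 were called, members of the role lists, and the neighbours of called members. Genes named outside this rule are marked as such.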

Additional observations from a re-analysis of the deposited data

Results flagged for a closer look

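The effect of the ANG8 virus against Ad_GFP and that of the shANG8 virus against shCtrl differed in edgeR's test of the difference for 14 lincRNAs, which places them here for a closer look. Of these, 10 were lower, with differences in log2 fold change of -5.20 (B930025P03Rik), -5.19 (Gm31583), -3.78 (Gm47465), -2.37 (1810008I18Rik), -2.33 (0610043K17Rik), -2.29 (AC135964.2), -2.09 (Gm30122), -1.67 (2310001H17Rik), -1.40 (Gm8883) and -1.35 (1700001L05Rik). The higher ones had differences of 1.42 (AU020206), 1.49 (Gm34934), 2.76 (Gm13431) and 2.99 (Gm17767). For 7 of the 14, namely Gm47465, 1810008I18Rik, 0610043K17Rik, AC135964.2, Gm8883, AU020206 and Gm17767, the difference was called in every alternative that was run.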

How the results depend on the processing

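For ANG8 against Ad_GFP 29 members were called. Leaving out 1 library of the comparison gave 15 to 25 calls, beside 6.57% to 11.1% of all tested genes. Keeping the 94 members with 20 counts in all 12 libraries gave 18 (19.1%), beside 13.5%. DESeq2 and the fit without a low-count filter gave 41 each, beside 17.5% and 9.13% of all tested genes, and limma voom gave 28, beside 14.7%. For shANG8 against shCtrl, where 0 were called, DESeq2, the fit without a low-count filter and the fit with the replicate block each called 1 (Gm13431, B930025P03Rik and Gm31583). For shCtrl against Ad_GFP, with 0 called, DESeq2 called 1 and the fit without the filter 2. The 14 calls of the difference became 27 with DESeq2 (10.5% of all tested genes) and 29 without the filter (5.79%). They ran from 10 to 22 with 1 library left out, beside 3.12% to 8.06% of all tested genes. Among the 94 members with 20 counts in all 12 libraries 8 were called (8.51%), beside 6.62% of all tested genes. The cause of these moves was not tested. Outside the mitochondrial genome the difference in summed share was 0.158 percentage points for ANG8 against Ad_GFP and -0.0899 for shCtrl against Ad_GFP. For shANG8 against shCtrl that difference, 0.0193, ran from -0.0185 to 0.0400 with 1 library left out, below 0 without shANG8 library 2 (-0.0185) or shCtrl library 3 (-7.53e-05).

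Libraries share replicate numbers across groups. The correlation of same-numbered deviations was -0.07, 0.12 and 0.15 for ANG8 and Ad_GFP and 0.03, 0.08 and 0.19 for shANG8 and shCtrl. It was -0.04, 0.07 and 0.08 for shCtrl and Ad_GFP. In the same order, differently numbered libraries ran from -0.21 to 0.11, from -0.13 to 0.07 and from -0.13 to 0.04. The same-numbered values were small, and the numbers were not taken as pairs in the main fit. With the replicate block 39 members were called for ANG8 against Ad_GFP, beside 17.7% of all tested genes, and 26 for the difference, beside 10.6%. For Gm31583 in ANG8 against Ad_GFP the adjusted p by edgeR was 0.0185 in the main fit and 9.61e-09 with the block. Members had a median of 3.45 CPM.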
